A study of Homo sapiens with 4 samples.

Results

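The AP-1 subunits examined here are 10 genes of the basic leucine zipper class, taken by symbol from the 28278 genes of the deposited table: JUN, JUNB and JUND, then FOS, FOSB, FOSL1 and FOSL2, then ATF3, BATF2 and BATF3. All 10 were found. RNA sequencing was carried out on A549, a human lung adenocarcinoma line. A lentivirus carried either a control construct (2 libraries, genotype label WT) or a CBX7 expression construct (2 libraries, genotype label CBX7 overexpression), and stable lines were made from the infected cells. The labels describe 1 stable line for each construct and no untransduced cells, so an effect of CBX7 and a difference between the lines cannot be told apart. They do not say whether the libraries of a group came from separate cultures, and the p-values therefore measure the spread between these libraries, which may be technical.

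AP-1 is a dimer that binds DNA through paired leucine zippers. JUN proteins pair with each other or with FOS proteins, whereas FOS proteins need a partner, and ATF3 and the BATF proteins join the same network as further partners. Most members are early response genes, transcribed within minutes of growth factor, cytokine or stress signals passed on by the ERK, JNK and p38 kinases, and their messages are short-lived. JUND is the member best known for steady expression in resting cells. In lung adenocarcinoma cells AP-1 is known for driving genes of invasion, matrix breakdown and inflammation.

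Library totals ran from 69877585 to 90765502 estimated counts. CPM below is the TMM-scaled count relative to library size, and a floor of 3 counts was worth 0.0320 to 0.0440 CPM. CBX7 rose from 8.37 ± 0.521 to 18.1 ± 1.31 CPM (SD, n = 2), and a gene count cannot separate the construct from the endogenous gene. The keratins KRT8 and KRT18 and the A549 enzymes AKR1B10 and ALDH1A1 were abundant in all 4 libraries, while EPCAM (0.650 to 1.61 CPM) and KRT19 (0.0748 to 0.453 CPM) were low. Of the 11 epithelial markers 1 was called lower and 3 higher, where 13.9% of all tested genes were called lower and 10.5% higher. The leukocyte markers CD3E and MS4A1 were at 0 in every library, and PTPRC did not exceed 0.0961 CPM. The summed level of the 10 leukocyte markers was 166 and 171 CPM in the controls and 27.9 and 27.2 CPM with CBX7, most of it CD68, which fell from 158 and 165 CPM to 23.6 and 23.6 CPM. Fibroblast markers summed to 5.59 to 8.50 CPM and endothelial markers to 1.07 to 3.88 CPM; THY1 was at 0 in every library. Of the tested markers, 2 of 4 leukocyte genes (CD68 and ITGAM) were lower and 1 (CD14) higher, and 1 of 4 endothelial genes (CDH5) was higher. Of the fibroblast markers 0 were called in either direction, by edgeR (4 tested) or DESeq2 (7 fitted), and 1 was lower at an unadjusted p under 0.05 in each. The 7 fitted are those with any counts, and not all of them need have an adjusted p. The part of these genes in the results below was not tested.

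Elements of the AP-1 and cyclic AMP response type are known from promoters of this family, and the windows of 6 members that hold one of these 2 kinds are shown. The window of FOSL2 also holds one and is not shown. Sequences are from RefSeq, build GRCh38.p14, which had windows for 8 of the 10 members. Each run covers the 250 bases before an annotated start, 5′ to 3′ on the strand of the gene. Capitals mark TGACATCA, the AP-1 element described for the JUN promoter, TGACGT (reverse ACGTCA), the core of the cyclic AMP response element, and TATAAA, the TATA box. JUN, ATF3 and BATF2 held TGACATCA, which occurred in 2.37% of all 35116 windows of this length in the table on either strand.

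JUN, chr1:58784048-58784297, minus strand: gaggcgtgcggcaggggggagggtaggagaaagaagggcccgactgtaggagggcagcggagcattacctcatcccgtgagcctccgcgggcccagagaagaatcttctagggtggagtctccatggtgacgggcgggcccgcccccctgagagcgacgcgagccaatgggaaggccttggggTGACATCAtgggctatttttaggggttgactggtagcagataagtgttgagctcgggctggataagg
ATF3, chr1:212565157-212565406, plus strand: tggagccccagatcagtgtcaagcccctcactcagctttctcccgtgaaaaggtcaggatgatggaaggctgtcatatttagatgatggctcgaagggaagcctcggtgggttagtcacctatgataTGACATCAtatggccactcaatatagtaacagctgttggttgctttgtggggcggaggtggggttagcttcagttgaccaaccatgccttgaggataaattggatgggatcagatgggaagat
BATF2, chr11:64990278-64990527, minus strand: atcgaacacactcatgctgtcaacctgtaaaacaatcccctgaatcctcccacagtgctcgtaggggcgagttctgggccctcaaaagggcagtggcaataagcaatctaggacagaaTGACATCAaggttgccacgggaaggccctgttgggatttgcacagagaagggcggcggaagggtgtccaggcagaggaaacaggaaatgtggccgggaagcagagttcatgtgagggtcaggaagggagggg

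FOS, FOSB, FOSL2 and JUND held TGACGT, which occurred in 7.1% of all windows. In JUND it was part of the full palindrome TGACGTCA (1.65% of all windows), and a further copy of the core lay nearer to the start.

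FOS, chr14:75278578-75278827, plus strand: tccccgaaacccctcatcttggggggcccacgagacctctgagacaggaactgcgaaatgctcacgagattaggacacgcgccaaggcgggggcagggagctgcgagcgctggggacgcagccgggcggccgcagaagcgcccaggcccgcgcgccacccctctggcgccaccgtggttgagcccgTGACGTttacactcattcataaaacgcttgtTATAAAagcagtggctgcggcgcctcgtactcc
FOSB, chr19:45467746-45467995, plus strand: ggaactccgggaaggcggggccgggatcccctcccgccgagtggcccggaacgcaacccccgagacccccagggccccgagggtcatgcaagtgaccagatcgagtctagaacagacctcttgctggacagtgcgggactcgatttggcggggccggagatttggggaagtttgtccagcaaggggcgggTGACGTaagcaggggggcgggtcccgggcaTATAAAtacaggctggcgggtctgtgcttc
JUND, chr19:18281623-18281872, minus strand: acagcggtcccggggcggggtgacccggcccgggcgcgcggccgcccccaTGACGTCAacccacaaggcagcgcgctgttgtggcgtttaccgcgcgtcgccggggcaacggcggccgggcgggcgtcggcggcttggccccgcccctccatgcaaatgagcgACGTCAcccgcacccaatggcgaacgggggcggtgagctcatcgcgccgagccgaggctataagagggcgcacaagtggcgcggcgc

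Counted from the annotated start, the TGACATCA match began at -67 in JUN, -123 in ATF3 and -132 in BATF2. The TGACGT match began at -64 in FOS, -60 in FOSB and -66 in FOSL2, and in JUND the palindrome began at -200 and the nearer core at -87. TATAAA lay in windows of FOS, FOSB, JUNB and ATF3 (10.7% of all windows), in ATF3 at a second start whose window is not shown. The consensus AP-1 heptamer TGACTCA (4.2% of all windows), the STAT element TTCNNNGAA (6.57%), the interferon-stimulated response element (3.02%) and the serum response CArG box (1.16%) had no match in the windows of these 8 members, which says only that those letters are not in these windows. A gene count does not tell which annotated start was used, and annotations differ in where a gene starts. The windows of JUN, FOSL2 and BATF2 lie wholly inside the gene models of GENCODE v29, and those of FOS, FOSB and the ATF3 start shown overlap theirs in part. BATF2 is on the minus strand, and its model reaches 64997045, whereas its window ends at 64990527. The match in BATF2, and the elements without one there, thus concern a start well inside the model.

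In cells overexpressing CBX7, 8 of the 10 subunits were lower (13.9% of all 17271 tested genes were called lower), JUND alone was higher (10.5% of all tested genes were called higher), and BATF3 was not called. The falls ran from 2.04-fold for FOS and 2.32-fold for FOSL2 through 6.26-fold for JUNB, 6.35-fold for JUN and 6.54-fold for FOSL1 to 22.6-fold for ATF3, 37.5-fold for FOSB and 48.7-fold for BATF2. The median log2 fold change of the 10 members was -2.66, against -0.00015 over all tested genes. In bulk RNA, fewer expressing cells and less RNA per cell cannot be told apart. Calls are at an adjusted p under 0.05 in edgeR's quasi-likelihood test with Benjamini-Hochberg adjustment over all tested genes. Every adjusted p below is from that test on all libraries, unless its sentence names another setting. For all 10 members the 2 control values did not overlap the 2 CBX7 values, in 9 downward (31.9% of tested genes) and in JUND upward (30.8%). With library totals in place of TMM the split over all genes turned, from 2399 lower and 1809 higher to 2033 lower and 2487 higher, while the members remained at 8 lower and 1 higher. Leaving out one CBX7 library lowered the number of genes called higher to 1021 (library 1) or 1121 (library 2).

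**Figure D1:**
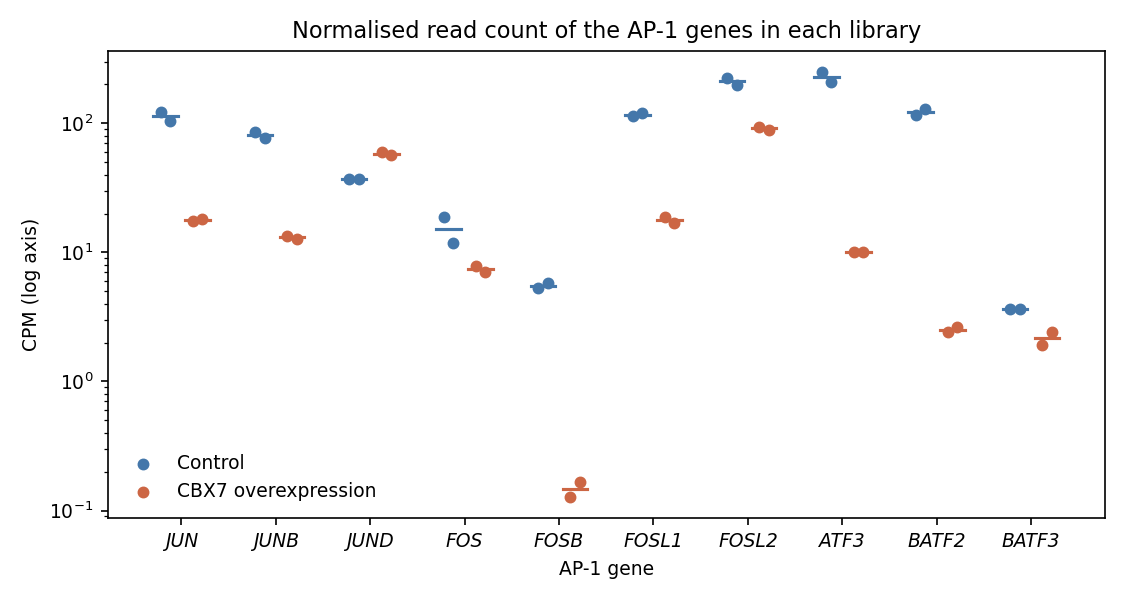
CPM on a log axis for each AP-1 gene in 2 control libraries (blue) and 2 CBX7 libraries (orange); points are libraries and short lines are group means. The orange points lie below the blue ones in 9 genes and above them in JUND, and FOSB is the gene with the lowest level with CBX7, at 0.128 and 0.166 CPM.

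The JUN family, whose proteins can form AP-1 without a FOS partner, split. JUN (chromosome 1, 58780788 to 58784327, a single exon in GENCODE v29, GRCh38) stood at 123 and 103 CPM in the controls and at 17.6 and 18.1 CPM with CBX7. Both CBX7 libraries lay far below the lower control. The log2 fold change was -2.67 (SE 0.123, 95% interval -2.93 to -2.40, adjusted p = 1.17e-09). JUNB (chromosome 19, 12791496 to 12793315, a single exon), often a weaker activator than JUN, stood at 86.1 and 77.5 CPM against 13.4 and 12.8 CPM, a 6.26-fold fall (log2 fold change -2.65, SE 0.121, adjusted p = 1.08e-09). The fitted changes of JUN and JUNB lay within each other's intervals, and the ratio of JUN to JUNB per kb of exon was 0.733 and 0.686 in the controls and 0.676 and 0.728 with CBX7. JUNB shares 259 exon bases with HOOK2 on the opposite strand, and without stated strand use reads there cannot be assigned. HOOK2 had 380 to 521 counts in the 4 libraries, against 7418 and 5286 for JUNB in the controls and 1251 and 1151 with CBX7.

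JUND (chromosome 19, 18279760 to 18281622, a single exon) went the other way. It stood at 37.3 and 37.3 CPM in the controls and at 59.5 and 56.4 CPM with CBX7. Both CBX7 libraries were above both controls, by 1.55-fold in the means. The log2 fold change was 0.64 (SE 0.111, 95% interval 0.40 to 0.87, adjusted p = 0.000865), and with 1 library left out it ran from 0.60 to 0.68. Per kb of exon, JUND was at 0.577 and 0.686 times the level of JUN in the controls and at 6.43 and 5.93 times that level with CBX7.

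In the FOS family, the partners that need a JUN protein to bind DNA, all 4 members fell. FOSL1 (FRA-1; chromosome 11, 65892049 to 65900573), a subunit tied to invasive growth and stabilised by ERK signalling, stood at 114 and 119 CPM against 18.7 and 16.96 CPM (log2 fold change -2.71, SE 0.117, adjusted p = 4.91e-10). FOSL2 (FRA-2; chromosome 2, 28392448 to 28417312) stood at 226 and 198 CPM against 93.3 and 89.4 CPM. Its fall of 2.32-fold (log2 fold change -1.22, SE 0.104, adjusted p = 1.16e-06) was smaller than that of FOSL1, with 95% intervals of -1.44 to -0.99 and -2.96 to -2.46. The ratio of FOSL2 to FOSL1 per kb of exon was 0.523 and 0.439 in the controls and 1.32 and 1.39 with CBX7.

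FOS (chromosome 14, 75278774 to 75282230), the textbook early response gene, stood at 18.7 and 11.7 CPM in the controls and at 7.85 and 7.09 CPM with CBX7. Its controls differed 1.59-fold from each other, the widest replicate ratio of any member. The log2 fold change was -1.03 (SE 0.209, adjusted p = 0.00272), and without control library 1 it was -0.65 (adjusted p = 0.0449). FOSB (chromosome 19, 45467995 to 45475179) was low even in the controls, with 454 and 394 counts, and had 12 and 15 counts with CBX7. In CPM it stood at 5.27 and 5.78 against 0.128 and 0.166 (log2 fold change -5.22, SE 0.370, adjusted p = 1.63e-07). Its interval, -6.01 to -4.42, was the widest of the members.

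ATF3 (chromosome 1, 212565334 to 212620777), a stress-induced member of the ATF group that acts mostly as a repressor on its own, stood at 250 and 208 CPM in the controls and at 10.1 and 10.1 CPM with CBX7. The CBX7 libraries were nearly equal and lay far below both controls. The log2 fold change was -4.50 (SE 0.129, adjusted p = 7.28e-12). BATF2 (chromosome 11), which is induced by interferon and lacks an activation domain, stood at 116 and 128 CPM against 2.40 and 2.63 CPM. Its log2 fold change of -5.60 (SE 0.139, adjusted p = 2.68e-12) had the largest size of the 10. BATF3 (chromosome 1, 212686418 to 212699985), known for its part in dendritic cell development, stood at 3.66 and 3.65 CPM against 1.92 and 2.42 CPM. Its log2 fold change of -0.75 (95% interval -1.38 to -0.12, adjusted p = 0.0772) missed the threshold, and in the alternative analyses its adjusted p ran from 0.0701 to 0.370. It had 180 to 315 counts in the 4 libraries. BATF, the remaining gene of that group, had at most 6 counts in any library and was not tested.

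**Figure D2:**
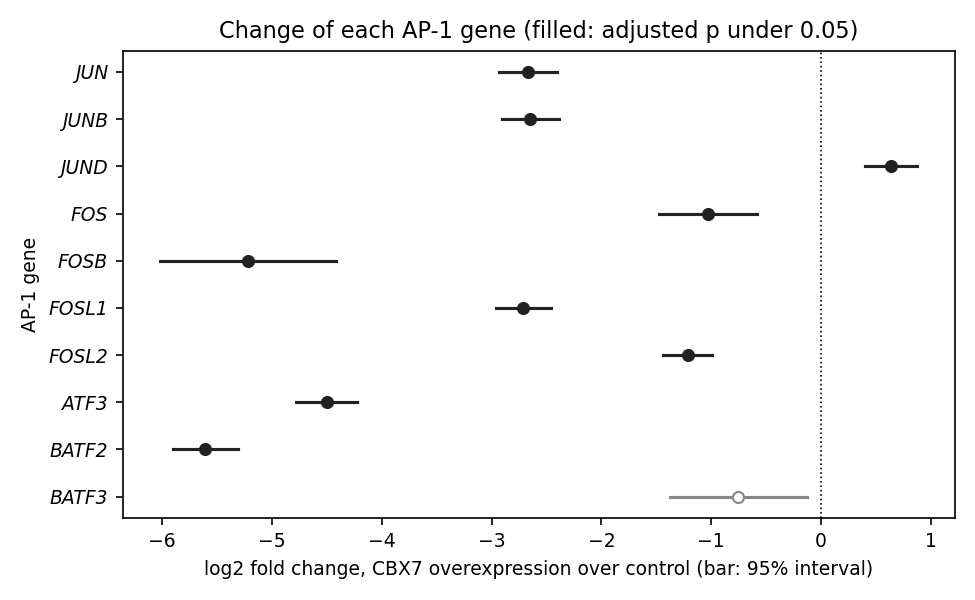
Log2 fold change (CBX7 overexpression over control) of each AP-1 gene, with bars for the 95% interval; filled points have an adjusted p under 0.05. JUND lies right of 0 at 0.64, BATF3 is the open point at -0.75, and FOSB, ATF3 and BATF2 lie left of -4.

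The pool as a whole shrank and changed in makeup. The summed CPM of the 10 members was 979.8 and 894.1 in the controls and 224.9 and 216.0 with CBX7, a 4.25-fold difference in the means. The exact permutation test, two-sided, gave p = 0.333, the smallest that 2 libraries against 2 allow, and the same holds for each share below. With the 7 FOS and JUN genes alone, the sum went from 609.8 and 553.5 CPM to 210.4 and 200.8 CPM, a 2.83-fold difference. The difference in the summed means was -716 CPM over the 10 genes and -376 CPM over those 7.

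By share of summed CPM, which weighs long transcripts more than short ones, ATF3 and FOSL2 led in the controls and FOSL2 and JUND with CBX7. ATF3 held 25.5% and 23.3% of the control pool and 4.49% and 4.70% of the CBX7 pool. BATF2 went from 11.9% and 14.4% to 1.07% and 1.22%. FOSL2 went from 23.0% and 22.2% to 41.5% and 41.4%, although its own level fell, and JUND from 3.81% and 4.17% to 26.5% and 26.1%. JUN (12.5% and 11.6% to 7.82% and 8.36%), JUNB (8.79% and 8.67% to 5.94% and 5.91%) and FOSL1 (11.6% and 13.3% to 8.31% and 7.85%) had lower shares with CBX7. FOS had a higher share, 1.91% and 1.31% against 3.49% and 3.28%, while its level was lower. FOSB held at most 0.646% and BATF3 reached at most 1.12%. In each of these shares the groups did not overlap.

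By family, the share of the FOS genes was 37.1% and 37.5% in the controls and 53.4% and 52.6% with CBX7, and that of the JUN genes 25.1% and 24.4% against 40.2% and 40.4%. Both gains were set against a lower joint share of ATF3, BATF2 and BATF3, which went from 37.8% and 38.1% to 6.42% and 7.03%. Within it ATF3 and BATF2 lost share, while that of BATF3 rose, from 0.373% and 0.408% to 0.855% and 1.12%. Among the 7 FOS and JUN genes alone the FOS share went the other way, from 59.6% and 60.6% to 57.0% and 56.6%. Per kb of exon the FOS share of those 7 genes went further down, from 49.1% and 51.0% to 36.5% and 35.9%. Per kb of exon and over all 10 genes, the FOS family held 32.4% and 33.5% in the controls and 34.5% and 33.7% with CBX7. The direction and size of the FOS family's change in share thus depend on which genes are counted and on the scale.

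Per kb of exon (merged exons of GENCODE v29, from 1.82 kb for JUNB to 7.157 kb for FOSL2), the members can be ranked roughly against each other. Merged exons join all annotated transcripts, so this length can exceed that of the transcript expressed, which lowers the level per kb. FOS, FOSB and ATF3 have 10, 13 and 11 annotated transcripts, and JUN, JUNB and JUND have 1, 1 and 2. In the controls the order of the mean levels was FOSL1 (61.8 CPM per kb), ATF3 (56.7), JUNB (45.0), BATF2 (43.0), JUN (31.9), FOSL2 (29.6), JUND (20.0), FOS (4.70), BATF3 (1.35) and FOSB (0.995). The neighbours FOSL1 and ATF3, JUNB and BATF2, and JUN and FOSL2 overlapped between libraries. With CBX7 the order was JUND (31.1 CPM per kb), FOSL2 (12.8), FOSL1 (9.45), JUNB (7.18), JUN (5.03), ATF3 (2.51), FOS (2.31), BATF2 (0.885), BATF3 (0.800) and FOSB (0.0265). Here BATF2 and BATF3 were the neighbours that overlapped. JUND moved from rank 7 in both controls to rank 1 in both CBX7 libraries. Its share of the pool per kb was 6.57% and 7.01% in the controls and 43.3% and 43.0% with CBX7.

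**Figure D3:**
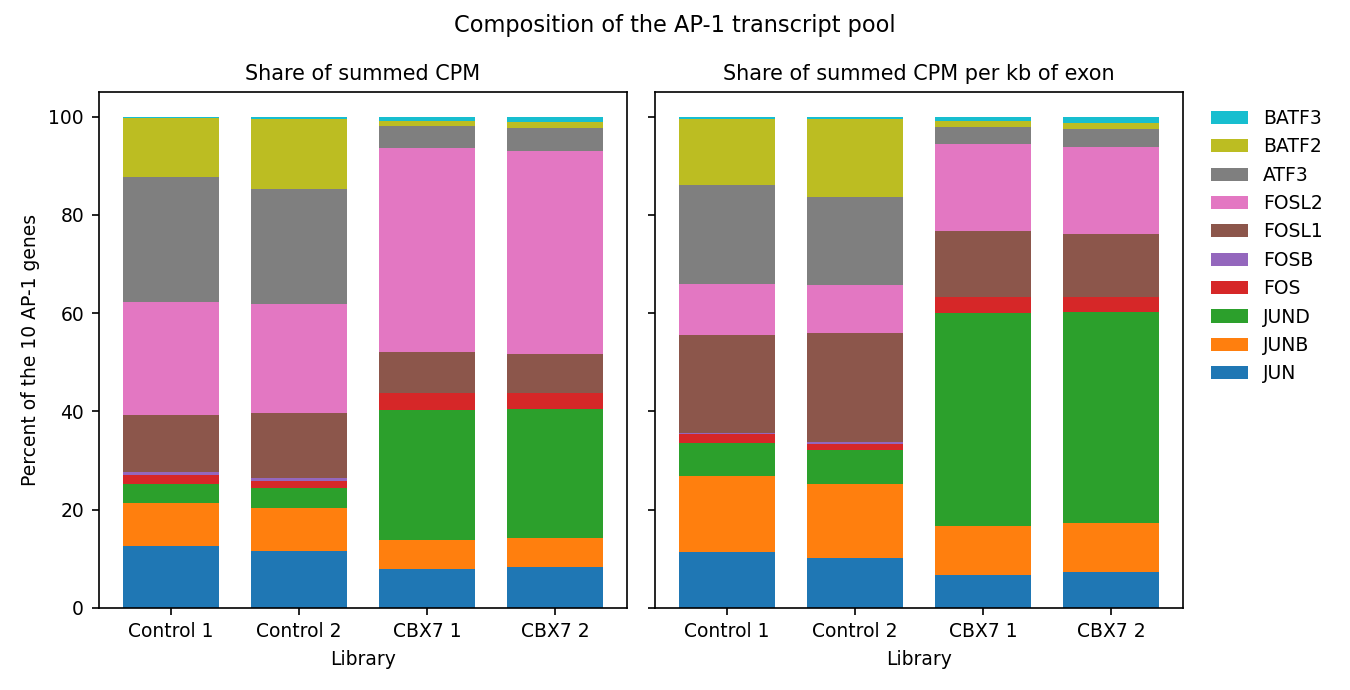
Percent of the summed CPM (left) and of the summed CPM per kb of exon (right) held by each AP-1 gene in the 4 libraries; each bar adds up to the whole pool. JUND (green) widens from a mean of 3.99% to 26.3% on the left and from 6.79% to 43.2% on the right, while ATF3 (grey) and BATF2 (olive) shrink.

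Other basic leucine zipper genes, which can pair with AP-1 subunits or compete for their sites, were mostly lower where they were called. Of 28 genes, 25 were tested, 14 were lower, 1 (CEBPA) was higher and 10 were not called, with a median log2 fold change of -0.36. Over all tested genes, 13.9% were called lower and 10.5% higher. DDIT3 (CHOP), a stress factor, stood at 75.9 and 67.6 CPM against 5.89 and 6.72 CPM (log2 fold change -3.51, adjusted p = 1.68e-10). MAFF, a small MAF protein, stood at 66.7 and 58.8 CPM against 11.1 and 9.04 CPM (log2 fold change -2.64, adjusted p = 6.14e-09). NFE2L3 had a log2 fold change of -2.36 and CEBPB of -1.25. JDP2, a repressor that pairs with JUN, was at 14.2 and 13.1 CPM against 14.2 and 15.0 CPM (adjusted p = 0.690). The call of CEBPA did not hold when control library 1 (adjusted p = 0.0817) or the same number of CBX7 (0.155) was left out, and 9 genes of the list were lower when the latter was. This list and that of the promoter-binding factors share CREB1, ATF1, ATF2 and ATF7.

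Among kinases that pass signals to AP-1, the share called lower was near that over all genes. Of 27 tested genes, from the receptor EGFR through RAS and RAF to the ERK, JNK and p38 kinases, 3 were lower, 1 was higher and 23 were not called (13.9% of all tested genes were called lower and 10.5% higher), with a median of 0.11. EGFR stood at 438 and 404 CPM against 282 and 269 CPM (log2 fold change -0.61, adjusted p = 0.000334). BRAF had a log2 fold change of -0.70 (adjusted p = 0.00105). Of the kinases that activate p38, MAP2K3 was lower (log2 fold change -0.75, adjusted p = 0.000217) and MAP2K6 higher (0.88, adjusted p = 0.000524). Among the end kinases, which were not called, MAPK9 (JNK2) had a log2 fold change of 0.14, MAPK14 (p38 alpha) of 0.17 and MAPK3 (ERK1) of 0.40 (95% interval 0.10 to 0.70, adjusted p = 0.0526). MAPK3 and RPS6KA3, an ERK-activated kinase, were called higher along with MAP2K6 by DESeq2, with library totals and with the replicate block. They were also called higher along with it with no count filter and with a mean count of 50 or more. By limma-voom MAPK3 and MAP2K6 were called higher. The call of MAPK3 was thus missing only from the main test among the fits to all 4 libraries. These counts measure transcripts and say nothing of kinase activity. Of these genes, 3 were higher without control library 1 and 2 without either CBX7 library.

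The list of promoter-binding factors holds 13 genes whose products bind the promoters of FOS and JUN or act with those that do. Of these, 4 were lower (CREB1, ELK3, ELK4 and MEF2A) and 1 was higher (MRTFB). Over all tested genes, 13.9% were called lower and 10.5% higher. The other 8 factors were not called, and the median of the list was -0.15. The called changes were small, with log2 fold changes of -0.43 to -0.33 and of 0.34 for MRTFB, and adjusted p from 0.0311 to 0.0393. SRF (log2 fold change -0.11) and its partner ELK1 (0.15) were not called. The calls depended on single libraries: 0 factors were lower without CBX7 library 2, 1 without control library 1, 2 without control library 2 and 1 without CBX7 library 1. MRTFB was not called without control library 2 or either CBX7 library (adjusted p of 0.0989, 0.331 and 0.0668).

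Of 11 genes for the decay of early response messages and the ubiquitination of JUN, 4 were lower and 7 not called. The share over all tested genes was 13.9% lower and 10.5% higher, and the median log2 fold change of the 11 was -0.20. By edgeR 0 were higher, also at an unadjusted p under 0.05, and by DESeq2 0 were, with 1 at an unadjusted p under 0.05. ZFP36 (tristetraprolin), which destabilises messages such as that of FOS, stood at 57.0 and 51.3 CPM against 16.5 and 19.3 CPM (log2 fold change -1.60, adjusted p = 6.31e-07). ZFP36L1 had a log2 fold change of -1.16 (adjusted p = 1.61e-06) and FBXW7, a ubiquitin ligase subunit that targets JUN, of -0.97 (adjusted p = 0.000509). That of DET1 was -0.47 (adjusted p = 0.0427), and its call was lost without any 1 of the 4 libraries (adjusted p of 0.0636 to 0.248). With all 4 libraries it was lost by DESeq2 (adjusted p = 0.0528), with library totals (0.0747) and with no count filter (0.0510), so that 3 genes of the list were lower by DESeq2 and with library totals. COP1, a ligase for JUN, was not called (log2 fold change 0.10).

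Genes known as AP-1 targets were lower in the majority of cases. Of 32 genes, 30 were tested, 18 were lower, 1 was higher and 11 were not called, with a median log2 fold change of -0.93. For comparison, 13.9% of all tested genes were called lower and 10.5% higher. This list, like the members and the other lists, was chosen with earlier results of these data known, so the comparison is descriptive only. CXCL8, a neutrophil chemokine, stood at 246 and 207 CPM against 30.1 and 31.3 CPM (log2 fold change -2.88, adjusted p = 2.76e-10). The urokinase receptor PLAUR had a log2 fold change of -1.55 (adjusted p = 1.57e-07) and the cytokine IL1A of -4.58 (adjusted p = 1.69e-07). Many of these genes also answer to NF-kB, so the list is not a measure of AP-1 alone.

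Further targets, chosen after their values were seen, show the spread of this list. The receptor kinase AXL stood at 313 and 314 CPM against 133 and 131 CPM, and the growth factor EREG at 653 and 489 CPM against 236 and 217 CPM. The intermediate filament VIM had a log2 fold change of -0.40. SPP1 (osteopontin) was the member that rose, from 233 and 221 to 312 and 356 CPM (log2 fold change 0.56, adjusted p = 0.000975). PTGS2 (adjusted p = 0.231), LIF (0.562), CD44 (0.154) and HMOX1 (0.647) were not called. The collagenase MMP1, a classic AP-1 target, was at 0 counts in both controls and in CBX7 library 2, with 15 counts in CBX7 library 1. MMP13 had a fitted log2 fold change of -5.31 (adjusted p = 0.00338) from 1.18 and 0.645 CPM, with 0 counts left in CBX7 library 2, and lost its call without control library 1 (adjusted p = 0.0748). CCND1, IL1B and HBEGF also lost theirs without that library (0.0618, 0.0831 and 0.117), CCND1 without CBX7 library 2 (0.0797) and HBEGF without CBX7 library 1 (0.153).

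**Figure D4:**
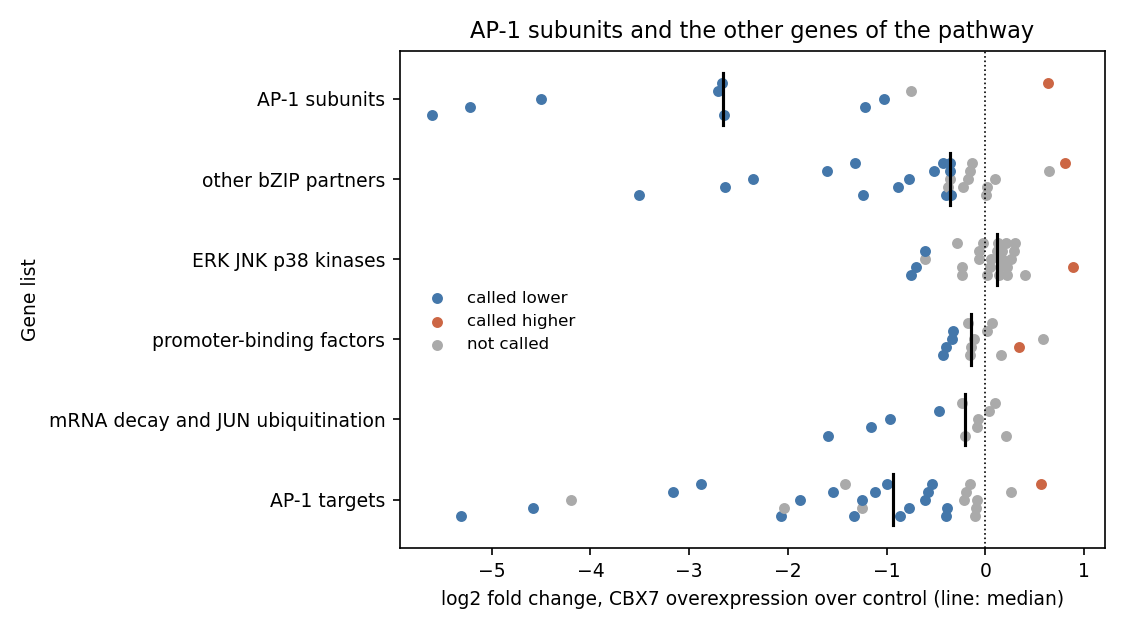
Log2 fold change (CBX7 overexpression over control) of every tested gene in the AP-1 subunits and 5 related lists, with a line at each median; blue is called lower, orange called higher, grey not called. The median of the subunits lies at -2.66, that of the targets at -0.93 and that of the kinases at 0.11.

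The other genes whose profile over the 4 libraries was nearest to that of the summed AP-1 pool included, in this order, TIPARP, CXCL3, RNF19B and STC2. Likeness was the root mean square distance between centred log2 CPM values among 14170 genes with a mean count of 50 or more, and it was 0.028 for TIPARP, 0.029 for CXCL3, 0.052 for RNF19B and 0.056 for STC2. TIPARP, an ADP-ribosyltransferase, stood at 224 and 198 CPM against 49.7 and 49.95 CPM. With 4 libraries in 2 groups, such a match rests mostly on the size of the group difference. SOCS3, the gene named in the series title, stood at 43.8 and 40.8 CPM against 11.1 and 8.23 CPM, a log2 fold change of -2.13.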

How the data were processed

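The deposited table holds estimated counts per gene, which the authors gave as whole numbers; the tools StringTie 2.2.1, HISAT2 2.2.1 and DESeq2 and the build hg38 are listed, without roles, per the submitters' processing notes. The sources used here do not give the annotation or strand use. All 4 columns matched sample titles, and rounding changed no value. Genes were kept with filterByExpr, scaled by TMM and tested with edgeR 4.0.16 (R 4.3.3; quasi-likelihood, robust, group as the only term) on 4 libraries; SE and 95% intervals come from the F statistic. All 10 members were tested. Alternatives were DESeq2 1.42.0, limma-voom 3.58.1, library totals, other count filters, a replicate block and leaving out each library. Tests were checked on simulated data.

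Shares were computed per library from CPM and from CPM per kb of merged exon (GENCODE v29). The coding length planned for this was not used, since no protein table was at hand, and exon length, also for the 7 FOS and JUN genes alone, was chosen in its place after seeing the data. Promoter motifs were searched on both strands and chosen with the windows in view. The members and gene lists were chosen with earlier results of these data known. Named were all members, up to 4 genes with the smallest p in each of the 5 pathway lists, CBX7, SOCS3 and the 5 nearest profiles; other genes were named after their values were seen. Some genes that this rule takes in are not reported here. Counts of same-group libraries differed beyond sampling noise (chi-square over its degrees of freedom, 46.3 for control and 36.1 for CBX7). Each library was treated as 1 replicate, and this spread does not tell whether the libraries came from separate cultures. The labels give no batch. Intervals and floors do not cover differences between cultures.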

Additional observations from a re-analysis of the deposited data

How the results depend on the processing

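The calls of the 10 members, 8 lower and 1 higher, were the same in number under DESeq2, limma-voom, library totals, no filter, a mean count of 50 or more, the replicate block and each library left out, and all 100 member values kept their direction and their side of the threshold. Of the other named genes, 46 values lost their call and SRF, which was not called, ran from -0.264 to 0.0662 with 1 library left out, changing sign without control library 2. Kinases called higher numbered 3 by DESeq2, 3 by library totals and 3 with the replicate block, against 1. MAP2K6, MAPK3 and RPS6KA3 were also called higher under both other count filters, and MAP2K6 and MAPK3 by limma-voom. Promoter-binding factors called lower numbered 0 by library totals, against 4. With 1 library left out, other basic leucine zipper genes ran from 9 to 12 lower and from 0 to 1 higher, kinases from 1 to 3 higher, promoter-binding factors from 0 to 2 lower and from 0 to 1 higher, and AP-1 targets from 1 to 2 higher. Fewer libraries take part in those fits; otherwise the cause was not tested.

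The log2 change of the summed CPM was -2.09, and -1.50 for the 7 FOS and JUN genes, by construction without ATF3, BATF2 and BATF3. The change in share (percentage points) was 15.7 for the FOS family, but 1.13 per kb of exon, -3.31 among the 7 genes and -13.9 among the 7 genes per kb. It was 15.5 for the JUN family, 27.3 per kb, 3.31 among the 7 genes and 13.9 among the 7 genes per kb, and -31.2 for ATF3 with the BATF genes, -28.4 per kb. The replicate numbers mark no stated pairing, and the differences between replicates 1 and 2 correlated at r = 0.013 between the groups across genes; the replicate block gave 2503 lower and 2100 higher genes. BATF, with at most 6 counts in a library, was too low to test, and FOSB with CBX7 rests on 12 and 15 counts.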
